A study of Homo sapiens with 12 samples.

Results

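miR-221 and miR-222 are human microRNAs (miRNAs) made from neighbouring hairpins on the X chromosome. The pair was chosen by name: the deposited count tables hold 1346 miRNA entries, and 4 of them, hsa-miR-221-5p, hsa-miR-221-3p, hsa-miR-222-5p and hsa-miR-222-3p, are its strands. A strand named 5p comes from the left arm of a hairpin and a strand named 3p from its right arm. The samples are 12 small RNA libraries of HCT116, a human colorectal carcinoma cell line, made by AQ-seq, a protocol that lowers the bias of adapter ligation. Every library came from cells rescued with a DICER protein, and the 6 groups of 2 libraries differ in that protein: wild type (WT), R821E, R821A, E5, A5 or ΔPAZ helix. R821E and R821A carry glutamate or alanine at 1 arginine, and in ΔPAZ helix, going by the name, a helix of the PAZ domain is deleted, the part of DICER that holds an end of the precursor. The sources used here do not give the residues meant by E5 and A5, the cells' own DICER alleles, the way the rescue protein was expressed or whether a line is 1 clone. The labels number the libraries of a group and name no separate cultures. All p-values therefore measure the spread between these libraries, which may be technical.

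DICER cuts the loop off a precursor hairpin and leaves a duplex of the 5p and 3p strands, of which an Argonaute protein keeps the guide strand while the passenger strand is mostly lost. The place of the cut sets the last base of the 5p strand and the first base of the 3p strand, and with it the seed, the bases near the start of a guide that pair with target mRNAs. For miR-221 and miR-222 the 3p strand is the usual guide, and the shared seed is known to repress cell cycle inhibitors such as p27 (CDKN1B) and p57 (CDKN1C) and the receptor KIT. Both miRNAs are abundant in many carcinoma lines.

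Total miRNA counts per library were 144067 to 255296, and 617 to 804 miRNA entries had at least 1 count. At that depth 3 counts, the limit that a count of 0 allows, equal 11.8 to 20.8 CPM, the count scaled to library size. Limits and intervals of this kind cover counting error only, because PCR copies of a molecule are not independent reads. Spike-in RNA was counted in 30 further entries, with 13.4 to 25.9 miRNA counts for each spike-in count. Of 8 miRNAs of colon epithelium, all were detected in every library and together took 38.0 to 58.1% of miRNA counts, nearly all of it miR-21-5p, since the other 7 took 0.0942 to 0.296%. Of 15 miRNAs of leukocytes, erythroid cells, stroma, muscle, liver and neurons, 14 have an entry and took 0.146 to 0.247% together, and 8 of the 14 were detected in every library. Without TMM factors, miR-9-5p of neurons was at 526 to 972 CPM and miR-145-5p of stroma at 170 to 607. miR-142-3p of leukocytes was at 97.2 to 458 CPM. Among the colon markers, miR-200b-3p was at 453.6 to 1465 CPM and miR-200a-3p at 180.5 to 1005. The colon marker miR-192-5p was at 82.9 to 191 CPM and miR-194-5p at 30.5 to 202. Of the same list, miR-429 reached at most 387 CPM, miR-200c-3p 59.9 and miR-141-3p 46.4. miR-133a-3p and miR-124-3p had 1 count each over all libraries. In bulk RNA, fewer cells with a strand and less of it per cell cannot be told apart.

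The mature strands other than miR-221-5p, which has no entry among the sequences used, are printed 5′ to 3′ because the 2 guides share their seed. In this way 2 guides with 1 seed can be compared between different hairpins. Capitals mark the seed, bases 2 to 8.
hsa-miR-221-3p: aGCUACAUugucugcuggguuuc
hsa-miR-222-3p: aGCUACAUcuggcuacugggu
hsa-miR-222-5p: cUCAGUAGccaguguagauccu
The sequences are those of RefSeq on GRCh38.p14, minus strand: miR-221-3p at chrX:45746180-45746202, miR-222-3p at chrX:45747036-45747056 and miR-222-5p at chrX:45747073-45747094. The 2 guides share their first 8 bases, AGCUACAU. Counted position by position from the 5′ end, they are the same at 11 of the 21 positions of the shorter strand. That count allows no gaps, so it leaves out matches that are shifted between the strands. Of the 1179 entries with a mature sequence in that table, no other entry had this seed. The seed of miR-222-5p was found in that strand alone.

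The hairpins show where the strands lie relative to the loop that DICER removes. Capitals mark the mature strands printed above, so miR-221-5p is not marked in MIR221.
MIR221: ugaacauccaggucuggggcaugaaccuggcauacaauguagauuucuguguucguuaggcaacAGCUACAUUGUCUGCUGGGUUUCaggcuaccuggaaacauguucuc
MIR222: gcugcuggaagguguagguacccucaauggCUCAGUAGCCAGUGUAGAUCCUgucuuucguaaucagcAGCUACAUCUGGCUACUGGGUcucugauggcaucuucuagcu
MIR221 lies at chrX:45746157-45746266 and MIR222 at chrX:45747015-45747124, both on the minus strand and 110 bases long, with 748 bases between them. They are the only 2 miRNA hairpins of the table within 100 kb, and both lie in an intron of the noncoding gene MIR222HG (chrX:45745211-45770274, minus strand, GENCODE 29), where 1 annotated transcript spans both without an exon over either. In MIR222, 16 bases separate the end of the 5p strand from the start of the 3p strand. RNAfold gave a minimum free energy of -46.5 kcal/mol for MIR221 and -53.8 kcal/mol for MIR222.

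In WT cells the pair was abundant and both hairpins were 3p dominant. The 4 strands took 11.2% ± 1.25 of miRNA counts in WT (SD, n = 2), most of it from miR-222-3p, at rank 2 among all miRNA entries in every one of the 12 libraries. The WT libraries held 71495 and 62191 CPM of miR-222-3p and 26888 and 23671 CPM of miR-221-3p, on the scale of TMM factors, which assume that most entries do not differ between libraries. The passenger strand miR-222-5p stood at 3981 and 3598 CPM. miR-221-5p differed between the WT libraries, at 2601 and 7757 CPM.

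In R821E cells both guides were lower, with the larger fold change for miR-221-3p, and 5p was the more abundant strand of miR-221. miR-221-3p was counted at 8772 and 7947 CPM in R821E against 26888 and 23671 in WT, so each R821E library held less than either WT library. The log2 fold change was -1.60 ± 0.145 (SE, edgeR's quasi-likelihood test, adjusted p = 4.43e-06). miR-222-3p was counted at 36076 and 34597 CPM in R821E, below 71495 and 62191 in WT without overlap. It fell by 0.92 ± 0.137 on the log2 scale (edgeR, adjusted p = 1.70e-04). miR-222-5p, its passenger strand, was counted at 2682 and 2825 CPM and fell by 0.46 ± 0.134 (edgeR, adjusted p = 0.0121). Of the 4 strands, 3 were called lower and 0 higher in R821E, where 24.1% of the 374 tested entries were called lower and 47.9% either way. How many of these entries had libraries apart from WT, as both guides did, was not counted, here or in the other mutants. The call on miR-222-5p ended with DESeq2 (adjusted p = 0.0655) and in a fit of only the 4 libraries compared (edgeR, adjusted p = 0.148). It also depended on single libraries: on leaving out 1 library its log2 difference ranged from -0.53 to -0.34.

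miR-221-5p went the other way in R821E without passing the test. It was counted at 18301 and 16836 CPM in R821E, above all 10 libraries of the other groups, which lay between 2601 and 10186 CPM. The difference from WT was 1.76 ± 0.637 on the log2 scale (SE, edgeR, adjusted p = 0.0565). It passed with DESeq2 (adjusted p = 0.0127), without edgeR's robust step (adjusted p = 0.0120), and under 3 further settings. On the spike-in scale, with spike-in counts as library size, the difference was 0.44 (edgeR, adjusted p = 0.599). Per 1000 spike-in counts, miR-221-5p stood at 200.1 and 180.8 in R821E, inside the WT values of 67.1 and 213.3.

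**Figure D1:**
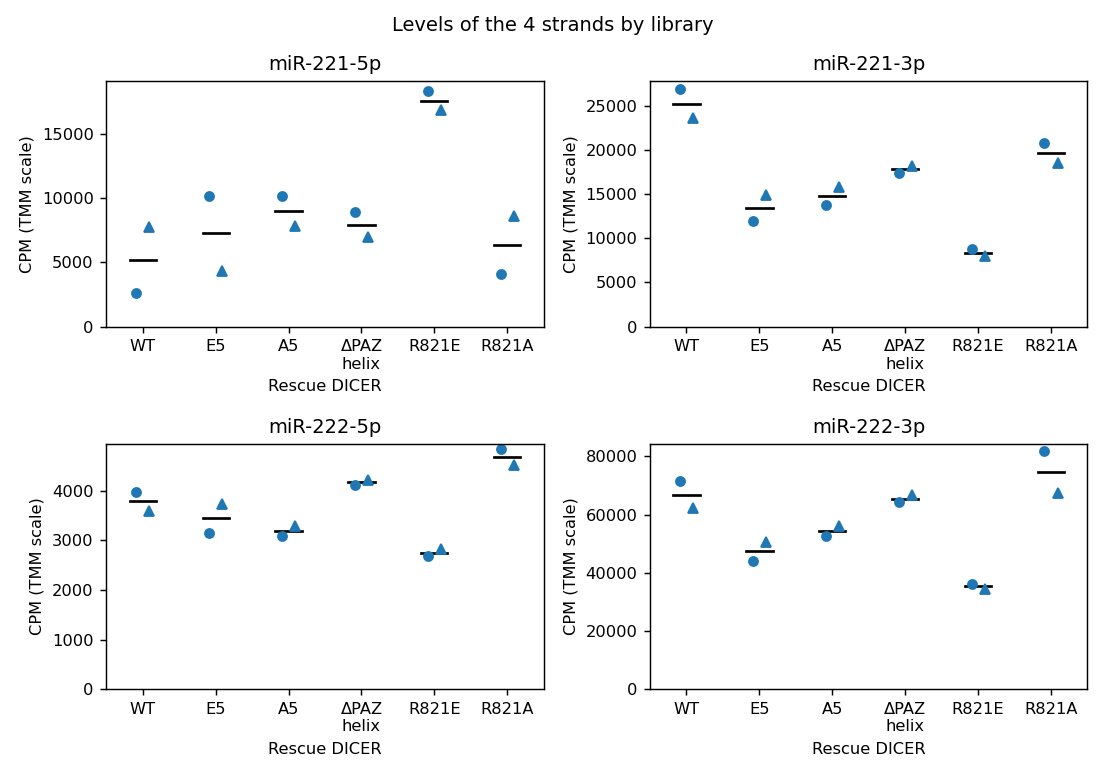
Level of each of the 4 strands in CPM (TMM scale, 1 panel per strand, axes from 0) by rescue DICER, with a circle for replicate 1, a triangle for replicate 2 and a line at their mean. The R821E libraries are the lowest for miR-221-3p, miR-222-3p and miR-222-5p and the highest for miR-221-5p, whose points are far apart in WT, E5 and R821A.

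The spread of miR-221-5p between libraries of a group was unusual for these data. Its log2 gap between replicates 1 and 2 was -1.57 in WT, where 2 of 250 entries averaging 100 CPM or more had a larger gap, 1.24 in E5, where 9 did, and -1.07 in R821A, where 4 did. In R821E the gap was 0.12. The other 3 strands of the pair had gaps of at most 0.32 in any group. Each WT library thus gives a different reference for miR-221-5p: the log2 difference of R821E from WT was 2.76 without WT replicate 2 (edgeR, adjusted p = 0.0297) and 1.23 without WT replicate 1 (adjusted p = 0.206). Other entries moved with these gaps. Over the 6 groups the gap of miR-27a-3p had r = -0.999 and that of miR-24-3p r = -0.994 with the gap of miR-221-5p, a description over 6 values. These 2 entries were picked for the most negative r among the 250. The part of such deviations in the levels of miR-221-5p was not tested.

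In E5 cells both guides were called lower, again with the larger fold change for miR-221-3p. miR-221-3p was counted at 11913 and 14878 CPM in E5, below both WT libraries, and fell by 0.92 ± 0.142 on the log2 scale (SE, edgeR, adjusted p = 0.00199). miR-222-3p, at 44073 and 50592 CPM, also lay below both WT libraries and fell by 0.50 ± 0.136 (edgeR, adjusted p = 0.0351). In E5, 2 of the 4 strands were called lower, beside 6.68% of all entries (9.09% either way). The call on miR-222-3p was lost with DESeq2 (adjusted p = 0.0913), with its size factors in edgeR (adjusted p = 0.0501), with upper quartile factors (adjusted p = 0.0503) and on leaving out any 1 of the 4 libraries (adjusted p = 0.0534 to 0.252). Fitted on the 4 libraries of E5 and WT alone, neither guide passed (edgeR, adjusted p = 0.261 for miR-221-3p and 0.347 for miR-222-3p).

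In A5 cells miR-221-3p was the 1 entry of 374 that edgeR called (0.267%). It was counted at 13750 and 15792 CPM, below both WT libraries, and its log2 fold change was -0.78 ± 0.141 (SE, edgeR, adjusted p = 0.0334). DESeq2 called it as well (adjusted p = 0.0104). The call was lost with upper quartile factors (edgeR, adjusted p = 0.122), among entries of at least 100 CPM (0.0540), without the robust step (0.0719), with only the 4 libraries (0.498), without A5 replicate 1 (0.579) and without A5 replicate 2 (0.198). miR-222-3p stood at 52720 and 56100 CPM in A5, below both WT libraries, with a log2 difference of -0.30 ± 0.135 that did not pass (edgeR, adjusted p = 0.352). Between E5 and A5 no strand of the pair and 0% of all entries passed with edgeR, with 36 entries at an unadjusted p under 0.05 and none called by DESeq2. The log2 difference of E5 from A5 was -0.14 ± 0.141 for miR-221-3p and -0.20 ± 0.135 for miR-222-3p.

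In ΔPAZ helix and in R821A cells no strand of the pair passed on the TMM scale: edgeR called 0 of 4 in each, beside 0.267% and 3.21% of all entries. miR-221-3p stood at 17449 and 18203 CPM in ΔPAZ helix and at 20779 and 18555 CPM in R821A, in both groups below both WT libraries. Its log2 differences from WT were -0.50 ± 0.141 (edgeR, adjusted p = 0.137) and -0.36 ± 0.141 (adjusted p = 0.281). miR-222-3p, at 64410 and 66570 CPM in ΔPAZ helix and 81930 and 67271 CPM in R821A, overlapped WT in both. Its differences were -0.03 ± 0.135 and 0.16 ± 0.135, the latter of the opposite sign on the spike-in scale, at -0.18. miR-222-5p was highest in R821A, at 4840 and 4519 CPM, with a log2 difference from WT of 0.30 ± 0.132 (edgeR, adjusted p = 0.379), or -0.03 with spike-in scaling.

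The 2 substitutions of R821 were compared directly, since they put a charged or a small residue at the same place. miR-221-3p was lower in R821E than in R821A, with a log2 fold change of -1.23 ± 0.143 (SE, edgeR, adjusted p = 8.82e-05). miR-222-3p changed by -1.08 ± 0.137 (adjusted p = 1.47e-04) and miR-222-5p by -0.77 ± 0.135 (adjusted p = 9.63e-04). These 3 of 4 strands were called lower beside 19.5% of all entries (41.4% either way), also on leaving out any 1 of the 4 libraries. The background itself moved: 155 entries were called either way, against 73 when R821E replicate 1 was left out and 94 when R821A replicate 1 was. Leaving out R821E replicate 2 gave 66 higher and 37 lower. miR-221-5p was higher in both R821E libraries than in both R821A libraries, with a log2 difference of 1.48 ± 0.632 that did not pass (edgeR, adjusted p = 0.101). DESeq2 called it (adjusted p = 0.0490).

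Ordered by mean level, miR-221-3p ran from WT (25279 ± 2275 CPM, SD, n = 2) over R821A (19667 ± 1573), ΔPAZ helix (17826 ± 533) and A5 (14771 ± 1444) to E5 (13396 ± 2096) and R821E (8359 ± 583). In that order only A5 and E5 overlapped as neighbours. miR-222-3p ran from R821A (74600 ± 10365 CPM) over WT (66843 ± 6579), ΔPAZ helix (65490 ± 1527), A5 (54410 ± 2390) and E5 (47332 ± 4610) to R821E (35336 ± 1046). Its 3 highest groups overlapped their neighbours, and the lower 3 did not. The log2 means of the 2 guides over the 6 groups had a Pearson r of 0.934, from 6 points that share their libraries and scale.

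**Figure D2:**
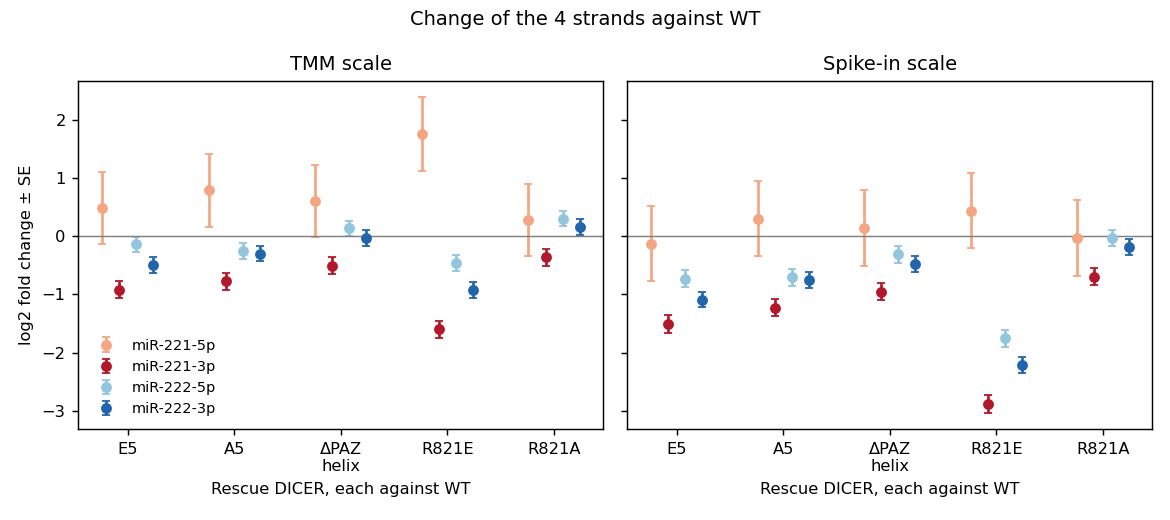
Log2 fold change of each strand against WT with its standard error from edgeR, on the TMM scale (left) and with spike-in counts as library size (right). miR-221-3p is the lowest of the 4 strands in all 5 mutants on both scales, and miR-221-5p has the widest error bars.

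Scaling to the spike-in RNA lowered the mutants' values over the whole table. This scale assumes that spike-in RNA was added alike to every library, which was not tested. There were 22.4 and 25.9 miRNA counts per spike-in count in the WT libraries, 17.6 and 21.5 in R821A and 15.3 and 13.4 in R821E. The median log2 fold change of all 374 entries against WT was -1.38 in R821E, -0.56 in E5, -0.46 in A5, -0.45 in ΔPAZ helix and -0.35 in R821A. The 5 comparisons share the WT libraries. Per 1000 spike-in counts, miR-221-3p stood at 693.4 and 651.1 in WT and at 95.9 and 85.4 in R821E. Its spike-scaled log2 fold change was -2.89 ± 0.157 (SE, edgeR, adjusted p = 9.87e-09) in R821E, -1.51 in E5, -1.23 in A5, -0.95 in ΔPAZ helix and -0.70 in R821A, and all 5 passed (adjusted p = 2.44e-05, 4.72e-04, 0.00267 and 0.0109 for the last 4). miR-222-3p passed on this scale in R821E (-2.21), E5 (-1.09), A5 (-0.75) and ΔPAZ helix (-0.48, edgeR, adjusted p = 0.0407), and not in R821A. miR-222-5p passed in R821E (-1.76), E5 (-0.73) and A5 (-0.70). No strand was called higher on this scale. Of the 4 strands, the number called lower was 3 in R821E beside 60.4% of all entries, 3 in E5 beside 27.3%, 3 in A5 beside 14.7%, 2 in ΔPAZ helix beside 13.1% and 1 in R821A beside 4.28%.

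The ratio of strands within a hairpin needs no scale between libraries. In miR-221 the 5p strand made up 67.6% of the hairpin's counts in R821E replicate 1 (95% Wilson interval 66.2 to 69.0, counting error only) and 67.9% in replicate 2 (66.2 to 69.6). In WT it made up 8.82% (8.24 to 9.44) and 24.7% (23.8 to 25.6). The R821E libraries were the only 2 of 12 in which miR-221-5p outnumbered miR-221-3p. The mean 5p share of miR-221 was 16.8% ± 11.2 in WT (SD, n = 2), 37.7% ± 6.59 in A5, 34.3% ± 16.7 in E5 and 30.7% ± 4.39 in ΔPAZ helix. In R821A it was 16.4% in replicate 1 and 31.6% in replicate 2. R821A replicate 1 and E5 replicate 2 (22.5%) lay between the WT libraries. The hairpin of miR-222 had a low 5p share in all groups. It was 7.23% ± 0.445 in R821E, 6.78% ± 0.131 in E5, 5.98% ± 0.0342 in ΔPAZ helix, 5.94% ± 0.507 in R821A, 5.54% ± 0.0140 in A5 and 5.37% ± 0.138 in WT.

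The log2 ratio of 5p to 3p counts was tested over the 69 hairpins whose arms each averaged 20 counts or more. For miR-221 it was -3.37 and -1.61 in the WT libraries and 1.06 and 1.08 in the R821E libraries. This shift of 3.56 ± 0.625 toward 5p (SE, limma, adjusted p = 0.00165) was the largest of the 69 hairpins, whose median was 0.40. Without WT replicate 1 or 2 it was 2.68 or 4.44. For miR-222 the ratio moved from -4.17 and -4.11 to -3.75 and -3.61, a shift of 0.46 ± 0.161 (limma, adjusted p = 0.0333) with 33 of 69 hairpins larger. Both hairpins were called toward 5p, beside 43.5% of all hairpins (56.5% either way). The call on miR-222 was lost without limma's trend and robust step (adjusted p = 0.0899), with hairpins down to 5 counts per arm (adjusted p = 0.0886) and with only the 4 libraries (adjusted p = 0.271).

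Relative to R821A, the R821E shift of miR-221 was 2.80 ± 0.625 (SE, limma, adjusted p = 0.00616), again the largest of 69 hairpins. One of 2 hairpins was thus called toward 5p, beside 34.8% of all (39.1% either way). Without R821A replicate 1 it did not pass (limma, adjusted p = 0.0565). miR-222 shifted by 0.31 ± 0.161 (limma, adjusted p = 0.152). The difference between the hairpins' 5p to 3p ratios, taken within each library, was 4.81 and 4.70 on the log2 scale in R821E and 0.80 and 2.50 in WT. The other 8 libraries lay between 1.73 and 3.65.

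**Figure D3:**
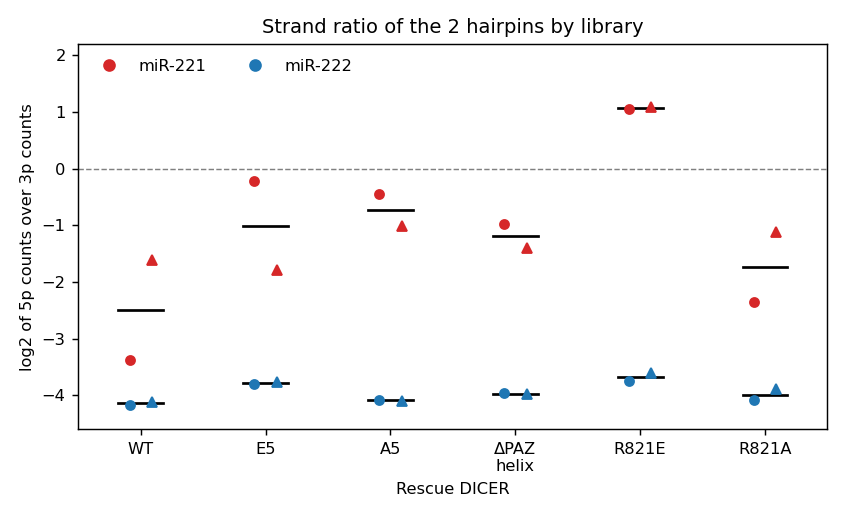
Log2 ratio of 5p to 3p counts of miR-221 (red) and miR-222 (blue) by rescue DICER, with a circle for replicate 1, a triangle for replicate 2 and a line at their mean. The dashed line marks equal counts, and only the R821E points of miR-221 lie above it, while miR-222 stays near -4 in every library.

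In the other mutants the mean ratio of miR-221 also lay above that of WT, without a call. The log2 shift against WT was 1.48 ± 0.625 in E5 (limma, adjusted p = 0.243), 1.76 in A5 (0.282), 1.31 in ΔPAZ helix (0.361) and 0.76 in R821A (0.744). In A5 and ΔPAZ helix it was the largest shift of the 69 hairpins, and in E5 and R821A 2 hairpins had a larger one. The size of these shifts rests on which WT library is kept: without WT replicate 1 or without WT replicate 2 the shift was 0.60 or 2.36 in E5, 0.88 or 2.64 in A5, 0.43 or 2.19 in ΔPAZ helix and -0.12 or 1.64 in R821A. For miR-222 the shift was 0.36 ± 0.161 in E5 (limma, adjusted p = 0.276), 0.17 in ΔPAZ helix, 0.15 in R821A and 0.05 in A5. In E5, limma called 3 hairpins (4.35%), neither miR-221 nor miR-222 among them. In A5, ΔPAZ helix and R821A limma called 0% of hairpins, with 6, 9 and 8 hairpins at an unadjusted p under 0.05. Between E5 and A5 it called 0%, with none under 0.05, and the difference of miR-221 was -0.28 ± 0.625.

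**Figure D4:**
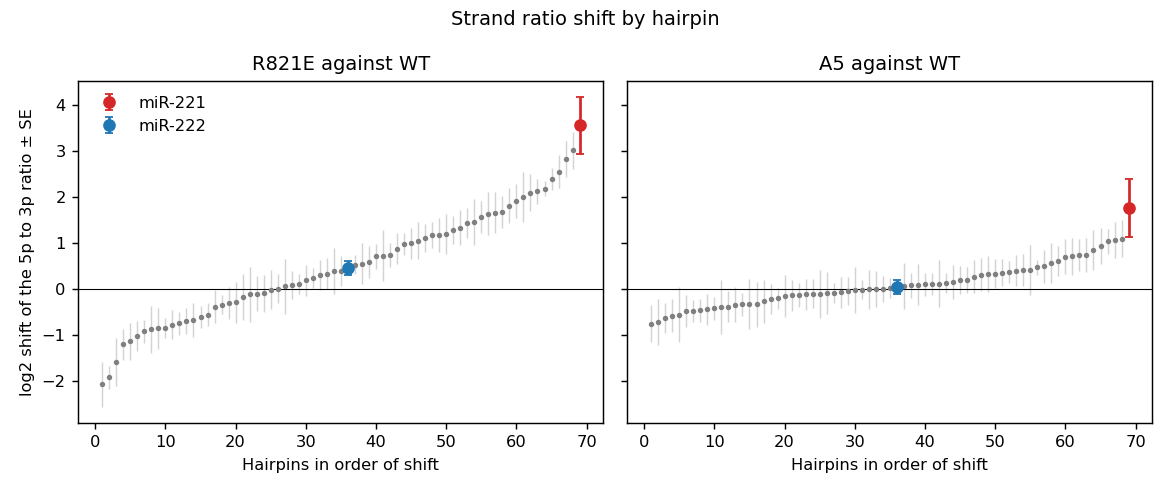
Shift of the log2 ratio of 5p to 3p counts, with its standard error from limma, for 69 hairpins in order of their shift, in R821E against WT (left) and A5 against WT (right). miR-221 (red) stands at the end of the order in both, at 3.56 and 1.76, and miR-222 (blue) near the middle, with 33 hairpins above it in each.

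The balance of the 2 guides, which share their seed in the reference sequences, differed between the groups. The counts are per entry and do not show the first base of a strand, and so its seed, in each library. Per library, the ratio of miR-221-3p to miR-222-3p counts was 0.376 and 0.381 in WT. It was 0.243 and 0.230 in R821E, 0.254 and 0.276 in R821A, 0.261 and 0.281 in A5, 0.270 and 0.294 in E5, and 0.271 and 0.273 in ΔPAZ helix. Each of the 10 mutant libraries was below both of WT, and the gap between WT and the highest mutant library was wider than the range of the WT libraries. The log2 ratio differed between the 6 groups in an exact permutation test over all 10395 ways to divide the libraries into 6 pairs (one-sided, p = 0.00904, adjusted p = 0.0226 over 5 ratios; the smallest p possible is 9.62e-05). Without R821E replicate 2 the exact adjusted p was 0.0803. The same exact test gave an adjusted p of 0.0226 for the 5p to 3p ratio of miR-222, which was 0.0803 without R821E replicate 2. It gave 0.0643 for the ratio of miR-221, 0.0688 for the difference of both ratios and 0.125 for miR-221-5p over miR-222-5p.

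**Figure D5:**
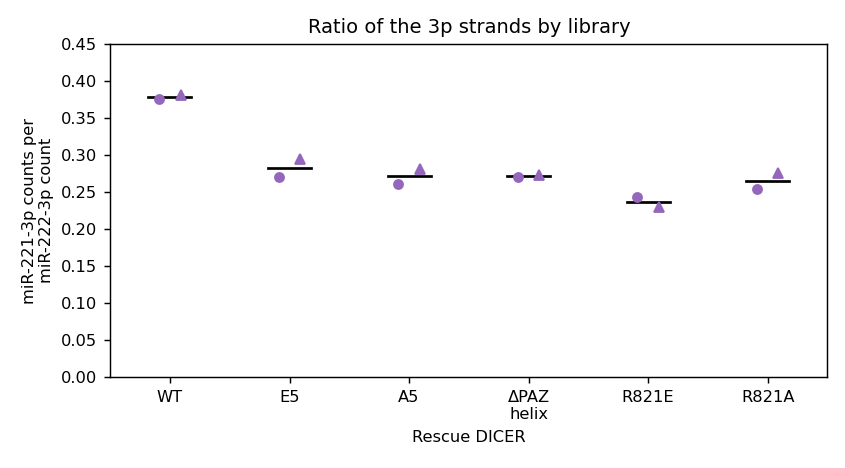
Ratio of miR-221-3p to miR-222-3p counts in each of the 12 libraries by rescue DICER (axis from 0), with a circle for replicate 1, a triangle for replicate 2 and a line at the group mean. Both WT libraries, at 0.376 and 0.381, lie above all mutant libraries, which span 0.230 to 0.294.

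The 5p strands had a different balance. miR-221-5p over miR-222-5p was 6.82 and 5.96 in the R821E libraries and 0.653 to 3.27 in the other 10. The WT libraries lay far apart, at 0.653 and 2.16.

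With both strands of a hairpin summed, a measure chosen after the strands' values were seen, 1 of the 2 hairpins was called lower in R821E. The total of miR-222 fell in R821E against WT by 0.90 ± 0.131 on the log2 scale (SE, edgeR, adjusted p = 2.36e-04). The total of miR-221 differed by -0.24 ± 0.113 (edgeR, adjusted p = 0.0964), so 1 of 2 totals was called lower beside 24.4% of 283 totals. Against R821A the values were -1.07 for miR-222 (edgeR, adjusted p = 2.13e-04) and -0.02 for miR-221 (adjusted p = 0.912), with 19.4% of totals called lower. The call on miR-221 depended on the scale: with total miRNA counts as the scale it was -0.78 against WT (edgeR, adjusted p = 2.02e-04) and -0.52 against R821A, and on the spike-in scale -1.53 and -0.97, all of which passed. In E5 both totals fell against WT, miR-221 by 0.54 ± 0.113 (edgeR, adjusted p = 0.0121) and miR-222 by 0.45 ± 0.130 (adjusted p = 0.0402), beside 7.42% of totals. The miR-222 total in E5 was not called by DESeq2 (adjusted p = 0.123). As a share of all miRNA counts, the 4 strands together took 11.5% ± 1.45 in R821A (SD, n = 2), where the libraries overlapped those of WT, 9.73% ± 0.476 in ΔPAZ helix, 8.53% ± 0.408 in A5, 7.37% ± 0.537 in E5 and 4.85% ± 0.211 in R821E.

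A list of 30 further miRNAs whose guide is a 3p strand set the pair beside strands of the same kind, and 28 of them were tested. In R821E, 24 of the 28 were lower and 0 higher (edgeR), beside 24.1% lower among all entries, with a median log2 fold change of -1.18 beside -0.10. miR-221-3p (-1.60) had 5 of the 28 below it, and miR-222-3p (-0.92) had 20. In E5, 7 were lower, beside 6.68% of all entries, with a median of -0.28 beside 0.03, and 3 of the 28 lay below miR-221-3p (-0.92) and 8 below miR-222-3p (-0.50). In A5 none passed with edgeR, beside 0.267% of all entries, with a median of -0.23 beside 0.00029, and 2 of the 28 lay below miR-221-3p. In ΔPAZ helix 1 was lower, miR-25-3p, named because it was the only entry called in that comparison (0.267%). The list's median was -0.25 beside 0.0046, and 8 of the 28 lay below miR-221-3p. In R821A 2 were lower, where 3.21% of all entries were called either way, with a median of -0.15 beside -0.02, and 4 of the 28 lay below miR-221-3p. miR-222-3p had 26 of the 28 below it in both ΔPAZ helix and R821A. R821E against R821A gave 22 lower, beside 19.5% of all entries, with a median of -1.03 beside -0.07. On the spike-in scale more of the 28 were called lower: 28 in R821E beside 60.4% of all entries, 17 in E5 beside 27.3%, 14 in A5 beside 14.7%, 16 in ΔPAZ helix beside 13.1% and 2 in R821A beside 4.28%. Their medians on that scale were -2.47, -0.86, -0.68, -0.69 and -0.48, in the same order of groups.

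The entries most like each guide were taken by Pearson r of log2 CPM over the 6 group means, among 250 entries averaging 100 CPM or more. For miR-221-3p they were miR-615-3p (r = 0.989), miR-483-3p (0.983) and miR-200a-3p (0.978). For miR-222-3p they were miR-23b-3p (0.976), miR-99b-5p (0.958) and miR-330-3p (0.952). miR-200a-3p, of the epithelial miR-200 family, had mean levels of 900.5 CPM in WT, 748.3 in ΔPAZ helix, 735.4 in R821A, 612 in A5, 533.5 in E5 and 286.4 in R821E. miR-23b-3p had 4600 CPM in WT and 3337 in R821E, a smaller difference than that of miR-222-3p. These 5 sequences are shown with the seed in capitals, and none of the 5 holds the seed of the pair.
hsa-miR-615-3p: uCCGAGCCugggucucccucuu
hsa-miR-200a-3p: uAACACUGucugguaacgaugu
hsa-miR-23b-3p: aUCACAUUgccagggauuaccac
hsa-miR-99b-5p: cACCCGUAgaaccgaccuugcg
hsa-miR-330-3p: gCAAAGCAcacggccugcagaga
By strand ratio, the hairpins most like miR-221 were miR-200a (r = 0.964), miR-148a (0.951) and miR-29a (0.950), each of 69 compared. Their log2 ratio in WT and R821E was -3.59 and -0.57 for miR-200a, -1.97 and -0.05 for miR-148a, and -0.96 and 1.23 for miR-29a, so the group mean of miR-29a also passed from below to above 0. Other hairpins of the 69 did so too: miR-29c (-0.66 to 1.48), miR-331 (-2.24 to 0.32), miR-455 (-0.76 to 0.58) and miR-423 (-0.66 to 0.51). So did miR-130b (-0.12 to 1.06) and miR-153 (-0.018 to 1.43), while miR-324 (0.16 to -0.86) passed the other way. The hairpins most like miR-222 were miR-454 (r = 0.929), miR-590 (0.919) and miR-30e (0.915). The ratios of miR-221 and miR-222 had r = 0.783 with each other. These correlations are descriptions over 6 points that share their libraries.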

How the data were processed

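Small RNA of 12 HCT116 libraries was measured by AQ-seq. The authors deposited raw read counts per miRNA or spike-in entry, whole numbers without normalization. Cutadapt, BWA and bedtools are named per the submitters' processing notes, with the builds hg38 and mm10. The sources used here give neither their versions, nor what each build was for, nor how reads matching several entries were counted.

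Groups were taken from the labels. Counts were tested with edgeR 4.0.16 in R 4.3.3 (quasi-likelihood, robust, TMM factors, filterByExpr), with all 12 libraries in 1 fit and 6 residual degrees of freedom. Library sizes and tests used miRNA entries alone. The filter left 374 entries, among them all 4 strands. Strand ratios were log2 of (5p + 0.5)/(3p + 0.5), tested with limma 3.58.1 (trend, robust) over 69 hairpins. P-values were adjusted by Benjamini-Hochberg over all entries or hairpins, with a threshold of 0.05. Ratios between strands were compared by exact permutation. Alternatives were DESeq2 1.42.0, other scales and filters, a replicate block and leaving out libraries. Scripts were tested on simulated data. Hairpins were folded with RNAfold 2.7.2.

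Entries named are the 4 strands and, for each guide and each hairpin ratio, the 3 entries or hairpins with the highest r. Marker miRNAs were named from their lists, and miR-25-3p, miR-27a-3p, miR-24-3p, miR-6516-3p, miR-4485-3p and miR-4454 after their values were seen. The hairpins miR-29c, miR-331, miR-455, miR-423, miR-130b, miR-153 and miR-324 were also named after their values were seen. The members, lists and tests were chosen with earlier results of these data known, and hairpin totals after the strands' values were seen.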

Additional observations from a re-analysis of the deposited data

How the results depend on the processing

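Values are log2 differences. Where another setting changed a call or a sign the cause was not tested, beyond the fewer entries or libraries that some settings use. On the spike-in scale calls were gained against WT for miR-222-5p in E5 (-0.73) and A5 (-0.70), miR-222-3p in A5 (-0.75) and ΔPAZ helix (-0.48), and miR-221-3p in ΔPAZ helix (-0.95) and R821A (-0.70). Uncalled values changed sign on that scale for miR-221-5p in E5 (-0.12) and R821A (-0.033), miR-222-5p in ΔPAZ helix (-0.31) and R821A (-0.029), miR-222-3p (-0.18) and the miR-222 total (-0.17) in R821A, and miR-222-5p in E5 against A5 (-0.025, and -0.032 with upper quartile factors). miR-222-3p in E5 lost its call with DESeq2 (-0.45), its size factors (-0.45), upper quartile factors (-0.56), a replicate block (-0.50) and only the 4 libraries (-0.50), where miR-221-3p in E5 was also lost (-0.92). miR-221-3p in A5 was lost with upper quartile factors (-0.69), entries of 100 CPM or more (-0.78), a replicate block (-0.78), no robust step (-0.78) and only the 4 libraries (-0.79). miR-222-5p in R821E was lost with DESeq2 (-0.39) and only the 4 libraries (-0.38). miR-221-5p in R821E gained a call with size factors (1.83), entries of 100 CPM or more (1.71), DESeq2 (1.83), no robust step (1.76) and only the 4 libraries (1.86), and against R821A with DESeq2 (1.51), no robust step (1.48) and only the 4 libraries (1.48). The miR-221 total in R821E against R821A was 0.0063 with size factors and 0.0064 with DESeq2. The strand ratio of miR-222 in R821E against WT stayed at 0.46 and lost its call with hairpins down to 5 counts, with no trend or robust step, with a replicate block and with only the 4 libraries. Among hairpins of at least 100 counts per arm, where fewer were tested, it was called in E5 (0.36) and in R821E against R821A (0.31).

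Leaving out 1 library changed a call or a sign for these level differences, given as lowest and highest: in E5 miR-221-5p (-0.21 to 1.48), miR-222-3p (-0.59 to -0.37) and miR-222-5p (-0.25 to 0.011), in A5 miR-221-3p (-0.88 to -0.64), in ΔPAZ helix miR-222-3p (-0.11 to 0.083), in R821E miR-221-5p (1.23 to 2.76) and miR-222-5p (-0.53 to -0.34), in R821A miR-221-5p (-0.29 to 1.28) and miR-222-3p (-0.010 to 0.33), and in E5 against A5 miR-221-3p (-0.30 to 0.015), miR-221-5p (-1.05 to 0.19) and miR-222-5p (-0.0094 to 0.23). For totals it did so for miR-221 (-0.65 to -0.47) and miR-222 (-0.59 to -0.36) in E5, miR-222 in ΔPAZ helix (-0.11 to 0.075) and miR-221 in R821E against R821A (-0.15 to 0.021). For strand ratios it did so for miR-222 in R821E (0.39 to 0.53), miR-221 in R821A (-0.12 to 1.64), in E5 against A5 (-1.06 to 0.50) and in R821E against R821A (2.19 to 3.42). Exact permutation adjusted p-values over the 6 groups ranged from 0.0357 to 0.225 for the strand ratio of miR-221, 0.00192 to 0.0803 for that of miR-222, 0.0357 to 0.263 for their difference and 0.0183 to 0.0803 for miR-221-3p over miR-222-3p. The falls of both guides in R821E, against WT and R821A, passed in all alternatives and without any 1 library.

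The labels do not say whether libraries with the same replicate number belong together across groups. Over 15 pairs of groups the correlation of deviations was -0.651 to 0.564, with a median of -0.0099. It was above 0.1 in 2, WT with R821A (0.564) and E5 with ΔPAZ helix (0.267). The most negative values were -0.651 for WT with E5 and -0.380 for E5 with R821A. A replicate block left the exact adjusted p at 0.00914 for miR-221-3p over miR-222-3p and 0.00770 for the strand ratio of miR-222. It also took the miR-222 total in E5 below the call threshold (-0.45), and changed no call on the pair beyond those given. Counts of called entries moved by over 1.5 times in most comparisons. In E5 there were 34, against 102 on the spike-in scale, 17 with DESeq2, 22 with the block, 0 with only the 4 libraries, 19 without E5 replicate 1, 6 without E5 replicate 2 and 9 without WT replicate 2. In A5 there was 1, against 0 to 3 in the other settings, 55 on the spike-in scale, 9 without WT replicate 1, 3 without WT replicate 2 and 0 without either A5 library. In ΔPAZ helix there was 1, against 0 to 7, 49 on the spike-in scale, 10 without WT replicate 1, 6 without WT replicate 2 and 0 without either ΔPAZ helix library. In R821A there were 12, against 0 with only the 4 libraries, 2 without R821A replicate 1 and 6 without R821A replicate 2. In E5 against A5 there were 0, and 1 without E5 replicate 1. In R821E there were 179, and 114 without R821E replicate 1. Of these 89 were higher and 90 lower. With total counts as the scale 40 of 188 were higher, with spike-in scaling 1 of 227, and 51 were lower without either R821E library. In R821E against R821A there were 155, against 73 without R821E replicate 1 and 94 without R821A replicate 1. Of the 155, 82 were higher and 73 lower, against 66 and 37 on leaving out R821E replicate 2, 19 and 132 by total counts, and 1 and 183 by spike-in counts. Called hairpin ratios were 3 in E5, against 0 with hairpins down to 5 counts or only the 4 libraries, 1 without trend and robust step, 5 without WT replicate 1 and 0 without any other library. They were 39 in R821E, against 24 without WT replicate 1, and 27 in R821E against R821A, against 15 without R821A replicate 1. Among the 15 hairpins of at least 100 counts per arm they were 11 and 9, with 1 in A5, 1 in ΔPAZ helix and 4 in R821A where 0 of 69 were called. Single calls also arose in A5 and ΔPAZ helix without WT replicate 1, in R821A without WT replicate 2, and in ΔPAZ helix with a pseudocount of 2 or without trend and robust step. With 2 libraries a group, precision rests on the shared estimate of spread over 6 groups.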

Other observations

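The gap between the libraries of a group in miR-221-5p went with a set of other entries, named here after their values were seen. Over the 6 groups, the gaps of miR-6516-3p (r = 0.982), miR-4485-3p (0.981) and miR-4454 (0.979) rose with those of miR-221-5p, the highest r among 250 entries. Their log2 gaps were -1.54, -0.64 and -0.97 in WT and 0.93, 0.61 and 0.58 in E5. In ΔPAZ helix miR-6516-3p (-0.091) and miR-4454 (-0.055) had the opposite sign to miR-221-5p (0.361). The gaps of miR-27a-3p were 0.56 in WT, -0.60 in E5 and 0.38 in R821A, and those of miR-24-3p were 0.56, -0.48 and 0.42. miR-222-5p, the other 5p strand of the pair, had small gaps of the opposite sign (r = -0.974), between -0.24 and 0.15. Replicates differed most in WT, with a chi-square per degree of freedom of 31.2 between the 2 libraries, and least in ΔPAZ helix, at 4.43. These are values only, and no test was run on them.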
